A study of Macaca radiata with 4 samples.

Results

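Smooth muscle and sarcomere contractile genes were followed in the corpus luteum of female bonnet monkeys (Macaca radiata) after replacement of luteinising hormone (LH). The 10 genes considered were TAGLN, CNN1, MYH11, MYL9, CALD1, TPM1, TPM2, ACTA2, DES and MYOM1. Members were all probe sets that the array annotation ties to one of these symbols and to no other, which gave 27 probe sets of 8 genes among 52766 probe sets, 24956 of which carry a single symbol and cover 14132 genes. ACTA2 and DES matched no such probe set and were not analysed here. The genes were chosen by their place in the contractile apparatus with the rhLH and PBS signals of these arrays already known, so every rhLH-to-PBS value of a member below is a description and carries no test.

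Animals of the rhLH group received CET, an agent that blocks their own LH secretion, at a dose of 150 µg/kg in the luteal phase (day 7), then 20 IU/kg of rhLH (recombinant LH) intravenously 24 h later (2 arrays, replicates 3 and 4). Control animals received the same CET treatment and then PBS, the vehicle (2 arrays, replicates 1 and 2). Corpora lutea were collected 8 h after either injection, so LH had been withdrawn in both groups and no array shows an animal without CET. The values are probe set signals on a linear scale from Affymetrix rhesus macaque arrays, hybridised with RNA of another macaque species.

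Contractile proteins turn calcium signals into force. In smooth muscle and pericytes, myosin built from the heavy chain MYH11 and light chains such as MYL9 pulls on actin filaments, and phosphorylation of the light chain switches the motor on. Tropomyosins (TPM1, TPM2), caldesmon (CALD1) and calponin (CNN1) lie along the actin filament and tune this cycle, and transgelin (TAGLN) binds and bundles actin. Striated muscle arranges the same motor in sarcomeres, where myomesin (MYOM1) cross-links myosin at the M-band. In the corpus luteum smooth muscle proteins are known mainly from the walls of blood vessels. In whole tissue, fewer cells of a type and less RNA per cell cannot be told apart.

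PBS replicate 1 stood apart from the other 3 arrays. The signal of the actin control probe set near the 3′ end of the transcript was 1.59 and 1.54 times that near the 5′ end on the rhLH arrays, against 11.2 times on PBS replicate 1 and 1.49 times on PBS replicate 2. For GAPDH these ratios were 2.28 and 1.62 on the rhLH arrays, against 3.23 on PBS replicate 1 and 1.88 on PBS replicate 2. Across probe sets, PBS replicate 1 correlated with the other arrays at Pearson r of 0.752 to 0.780, and those correlated with each other at 0.940 to 0.947. Each member is therefore given against each PBS array separately. The part of PBS replicate 1 in pooled differences was not tested.

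All 27 member probe sets passed the filter on low signals, a mean over the 4 arrays corresponding to a signal above 90.7. On 4 of them at least 1 array lay below that level. Differences are on the scale of log2(signal + 16), as the mean of the rhLH arrays minus the mean of the PBS arrays, and they understate the change of dim probe sets.

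Over the contractile genes as a group, signals did not move one way. The median difference over the 27 probe sets was 0.14 (range −1.45 to 2.40), with 15 positive and 12 negative, beside a median of −0.04 over all 31659 kept probe sets. Against PBS replicate 1 the median was 0.61, and against PBS replicate 2 it was −0.14, so the sign of the group value depended on the control array. TPM1, TPM2 and CALD1 hold 18 of the 27 probe sets. With 1 value per gene the pooled median was 0.73 with probe sets averaged and 0.87 with the brightest, beside 0.02 over all genes by their brightest. These medians also depended on the control array. Against PBS replicate 2 the brightest probe sets gave 1.57 (MYOM1), 1.30 (TAGLN), 0.03 (TPM2), −0.01 (CNN1), −0.13 (MYL9), −0.13 (CALD1), −0.30 (TPM1) and −1.28 (MYH11).

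Both rhLH arrays lay above both PBS arrays on 5 member probe sets, of TAGLN, MYH11, TPM2, CALD1 and MYOM1, where 14.4% of all kept probe sets did so. Both lay below on 4, of TPM1, TPM2 and CALD1 (2), where 17.7% of all did so. With each array centred on its median these background shares became 22.3% and 11.3%, the median over all kept probe sets became 0.19, and the member counts became 6 and 2. After quantile normalization the member counts were 6 and 7, beside 16.7% and 14.8% of all. In limma, 0 of the 31659 probe sets passed an adjusted p of 0.05 (0% called), the members among them. Without adjustment 641 of the 31659 had a limma p under 0.05, and 2 of these were members. The members were chosen with this contrast known, so nothing is read from that count.

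**Figure D1:**
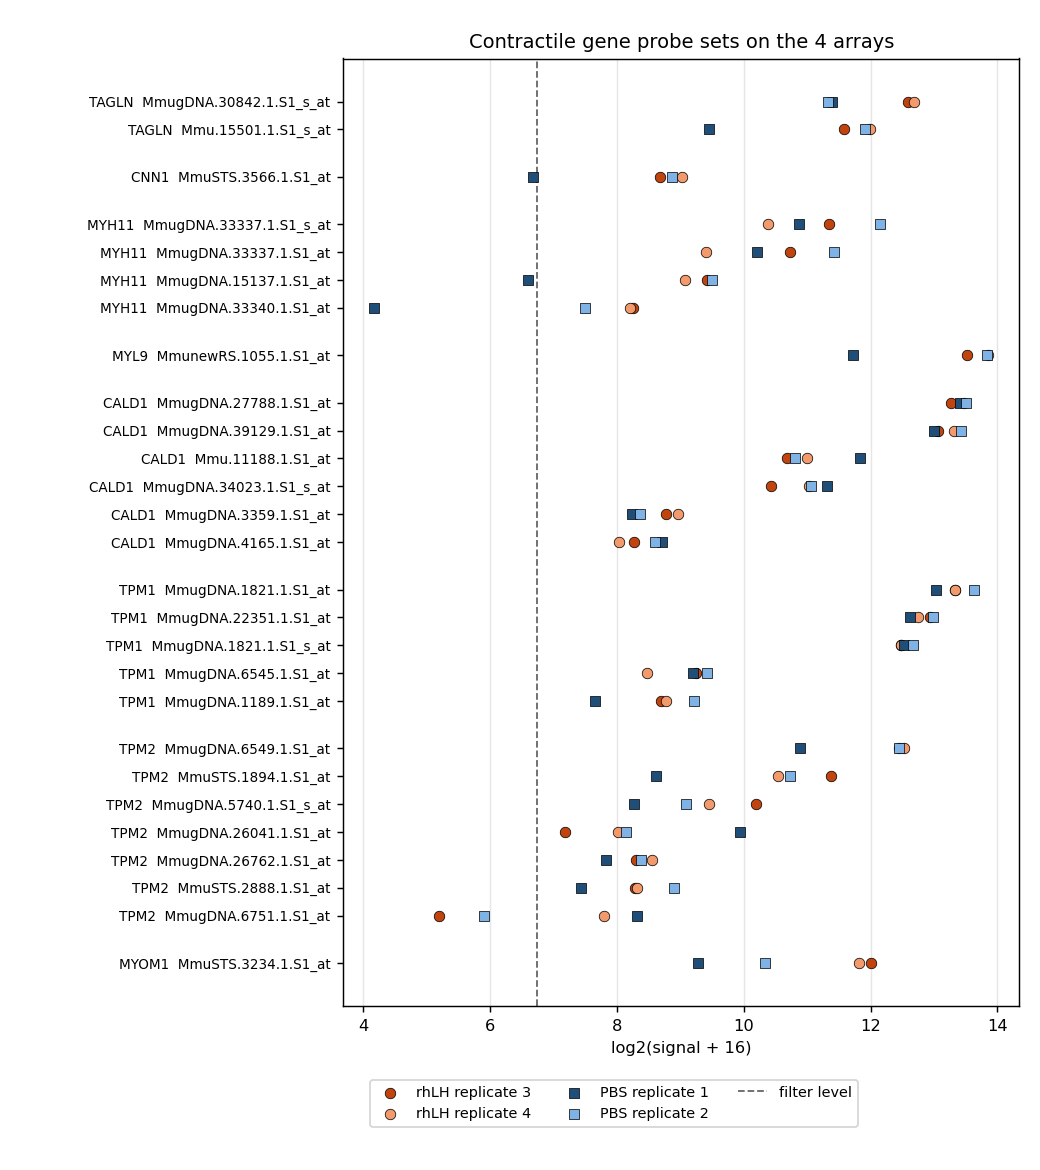
Signal of each of the 27 contractile gene probe sets on each array, as log2(signal + 16), with rhLH arrays as circles and PBS arrays as squares; the dashed line is the filter level (signal 90.7). PBS replicate 1 was the lowest of the 4 arrays on 16 probe sets and the highest on 5, where over all kept probe sets it was lowest on 35.7% and highest on 43.95%. The median signal over all probe sets was 135.5 and 135.4 on the rhLH arrays, against 186 on PBS replicate 1 and 139 on PBS replicate 2.

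TAGLN, the actin-binding protein transgelin and a classical smooth muscle marker, had 2 probe sets that differed in pattern. The brighter, MmugDNA.30842.1.S1_s_at, had signals of 6118 and 6561 on the rhLH arrays, against 2668 and 2568 on the PBS arrays. The groups did not overlap and replicates lay close together, with means of 6340 ± 314 with rhLH and 2618 ± 70.9 with PBS (SD, n = 2 each), a 2.41-fold difference (log2 1.27). It was among the few member values that hardly depended on the control array, at 1.24 relative to PBS replicate 1 and 1.30 relative to PBS replicate 2.

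The other TAGLN probe set had signals of 3031 and 4065 on the rhLH arrays, against 685 on PBS replicate 1 and 3857 on PBS replicate 2. Here PBS replicate 2 lay within the rhLH range and only PBS replicate 1 was low. The rhLH mean exceeded PBS replicate 1 by 2.33 log2 units but differed from PBS replicate 2 by −0.14, so the TAGLN probe sets differed from each other in the comparison with PBS replicate 2. Both carry the suffix _s_at, by which Affymetrix marks probes that can match more than one transcript.

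CNN1, calponin, which binds actin and slows the myosin motor, had 1 probe set. Its signals were 396 and 503 on the rhLH arrays, against 86.5 on PBS replicate 1 and 449 on PBS replicate 2. The groups overlapped, and the fold over PBS replicate 2 was 0.994. MYL9, the regulatory light chain whose phosphorylation starts contraction, showed the same layout: 11789 and 14844 with rhLH, against 3353 on PBS replicate 1 and 14528 on PBS replicate 2. The rhLH mean exceeded PBS replicate 1 by 1.98 log2 units and differed from PBS replicate 2 by −0.13.

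MYH11, the myosin heavy chain of smooth muscle, had 4 probe sets that spanned 3.14 log2 units. The brightest, MmugDNA.33337.1.S1_s_at, had signals of 2584 and 1318 on the rhLH arrays, against 1865 on PBS replicate 1 and 4501 on PBS replicate 2. The groups overlapped, and the rhLH mean lay 1.28 log2 units below PBS replicate 2 (log2 −1.28) and level with PBS replicate 1 (log2 −0.01). Its partner MmugDNA.33337.1.S1_at, which shares the target name, followed with 1682 and 665 on the rhLH arrays, against 1162 and 2743 on the PBS arrays.

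These probe sets also separated the rhLH arrays from each other. The difference between rhLH replicates 3 and 4 was 1.32 for MmugDNA.33337.1.S1_at and 0.96 for its partner, where the median absolute difference between the rhLH arrays over the members was 0.26. The third MYH11 probe set, MmugDNA.15137.1.S1_at, had 668 and 522 on the rhLH arrays, against 81.3 on PBS replicate 1 and 710 on PBS replicate 2. The fourth, MmugDNA.33340.1.S1_at, had 290 and 279 on the rhLH arrays, against 1.99 on PBS replicate 1 and 165 on PBS replicate 2. Its groups did not overlap, but its log2 difference of 2.40 was the mean of 4.06 over the first PBS array and 0.73 over the second. The signal of 1.99 lies below the filter level, so the value depends on the pseudocount: the pooled difference was 3.68 with a pseudocount of 1 and 1.505 with 64.

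CALD1, caldesmon, an actin-binding inhibitor of myosin present in muscle and non-muscle forms, had 6 probe sets that stayed within 0.57 log2 units of 0 in the pooled comparison. The brightest, MmugDNA.27788.1.S1_at, had 9896 and 11371 on the rhLH arrays, against 10893 and 11647 on the PBS arrays. The next, MmugDNA.39129.1.S1_at, had 8517 and 10144 with rhLH, against 8201 and 10944 with PBS. On both the groups overlapped, with differences of −0.09 and −0.03.

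The dimmer CALD1 probe sets did not point one way. MmugDNA.3359.1.S1_at was higher with rhLH (423 and 483 on the rhLH arrays, against 287 and 314 on the PBS arrays; log2 0.57). MmugDNA.4165.1.S1_at was lower (293 and 247 with rhLH, against 405 and 372 with PBS; log2 −0.50), as was MmugDNA.34023.1.S1_s_at (1369 and 2072 with rhLH, against 2516 and 2118 with PBS; log2 −0.45). On the remaining one PBS replicate 1 alone was high, with signals of 1630 and 2019 on the rhLH arrays, against 3638 and 1787 on the PBS arrays.

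TPM1, a tropomyosin that covers the myosin-binding sites of actin, held nearly level on its bright probe sets. MmugDNA.1821.1.S1_at had 10303 and 10287 on the rhLH arrays, against 8344 and 12708 on the PBS arrays, and its pooled difference was 0.00. MmugDNA.22351.1.S1_at had 7791 and 6845 on the rhLH arrays, against 6297 and 8079 with PBS, again with the rhLH arrays between the PBS arrays. On MmugDNA.1821.1.S1_s_at both rhLH arrays lay below both PBS arrays (5699 and 5718 with rhLH, against 5915 and 6468 with PBS), at a difference of only −0.12. The dimmer MmugDNA.6545.1.S1_at differed by −0.34 from PBS replicate 1 and −0.56 from PBS replicate 2. MmugDNA.1189.1.S1_at differed by 1.08 and −0.47 in the same order. Against PBS replicate 2 the 5 TPM1 probe sets ranged from −0.56 to −0.15.

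TPM2, the tropomyosin abundant in smooth and slow skeletal muscle, had 7 probe sets with differences from −1.45 to 1.28. The brightest, MmugDNA.6549.1.S1_at, had 5589 and 5885 on the rhLH arrays, against 1869 on PBS replicate 1 and 5603 on PBS replicate 2, so the groups overlapped and the fold over PBS replicate 2 was 1.02. MmuSTS.1894.1.S1_at had 2642 and 1468 on the rhLH arrays, against 378 and 1676 on the PBS arrays. MmugDNA.5740.1.S1_s_at was higher on both rhLH arrays (1157 and 687 with rhLH, against 292 and 530 with PBS), with log2 differences of 1.56 from PBS replicate 1 and 0.73 from PBS replicate 2.

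A further TPM2 probe set pointed the opposite way. MmugDNA.26041.1.S1_at had 129 and 242 on the rhLH arrays, against 968 and 267 on the PBS arrays, at −2.35 relative to PBS replicate 1 and −0.55 relative to PBS replicate 2. MmugDNA.6751.1.S1_at had 20.8 and 206 on the rhLH arrays, against 305 and 44.1 on the PBS arrays, and separated neither group. The remaining TPM2 probe sets, MmugDNA.26762.1.S1_at and MmuSTS.2888.1.S1_at, differed by 0.33 and 0.14 in the pooled comparison. The former differed by 0.61 from PBS replicate 1 and 0.05 from PBS replicate 2. The latter differed by 0.88 and −0.60 in the same order, so its sign depended on the control array.

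MYOM1, the M-band protein among the members, had 1 probe set, MmuSTS.3234.1.S1_at. Its signals were 4080 and 3603 on the rhLH arrays, against 602 on PBS replicate 1 and 1282 on PBS replicate 2. The groups did not overlap and the lower rhLH array exceeded the higher PBS array more than any other member did on the log2 scale. The means were 3842 ± 337 with rhLH and 942 ± 481 with PBS (SD, n = 2 each), a 4.30-fold difference (log2 2.10). The fold was 6.23 over PBS replicate 1 and 2.97 over PBS replicate 2.

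**Figure D2:**
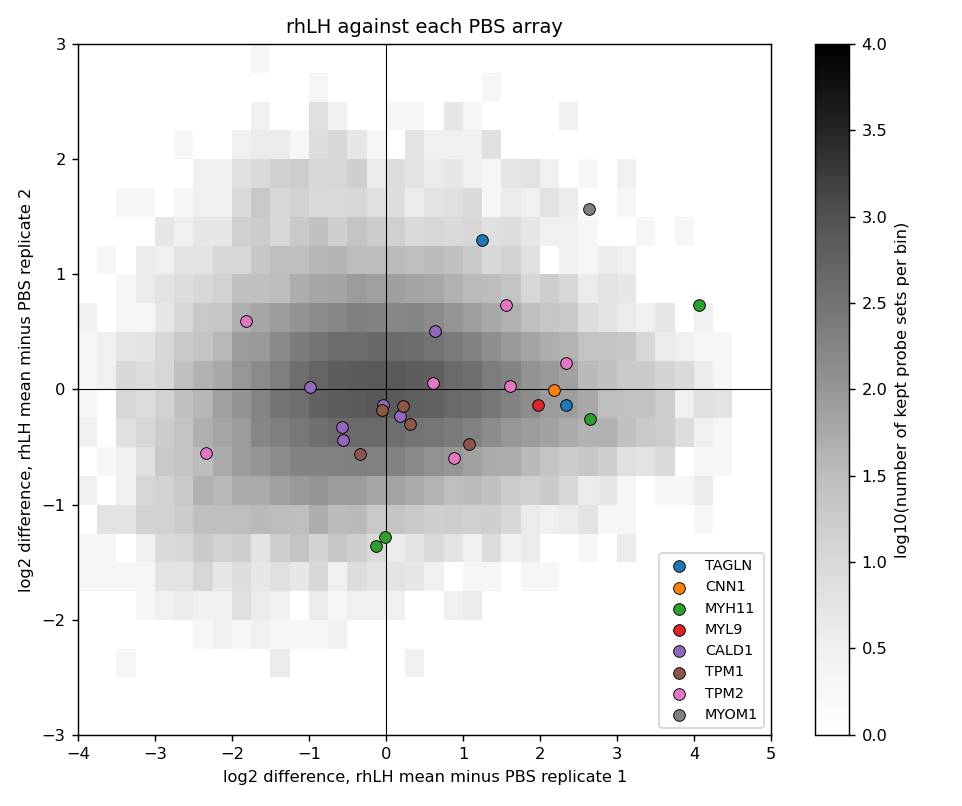
Log2 difference of the rhLH mean against PBS replicate 1 (horizontal) and PBS replicate 2 (vertical) for the member probe sets, coloured by gene, over the density of all 31659 kept probe sets in grey. Most members spread along the horizontal axis; MYOM1 (2.64 and 1.57) and 1 TAGLN probe set (1.24 and 1.30) lie at least 1 above 0 on both axes.

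Set against each control array, the members fell into unlike patterns. Against PBS replicate 1, 11 of the 27 were at least 2-fold higher with rhLH and 2 at least 2-fold lower, where 16.2% and 19.3% of all kept probe sets were. Against PBS replicate 2, only MYOM1 and 1 TAGLN probe set were at least 2-fold higher, where 3.6% of all were, and the 2 brightest MYH11 probe sets at least 2-fold lower, where 3.05% of all were. MYOM1 and that TAGLN probe set were also the 2 members on which every rhLH array was at least 2-fold above every PBS array, as 0.344% of all kept probe sets were, and 0 members were so on the lower side (0.49% of all). Because the genes were chosen with these values known, nothing is read from those counts.

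The control arrays differed more from each other over the members than the rhLH arrays did. The absolute difference between PBS replicates 1 and 2 had a median of 1.07 and reached 3.33, and 15 of the 27 probe sets differed at least 2-fold. Between rhLH replicates 3 and 4 the median was 0.26 and 2 probe sets differed at least 2-fold. Over all kept probe sets these medians were 0.74 between the PBS arrays and 0.29 between the rhLH arrays, and 37.5% and 8.28% of probe sets differed at least 2-fold. PBS replicate 1 was lower than PBS replicate 2 on 21 of the 27, with a median difference between these arrays of −0.61 over the members and 0.11 over all kept probe sets.

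**Figure D3:**
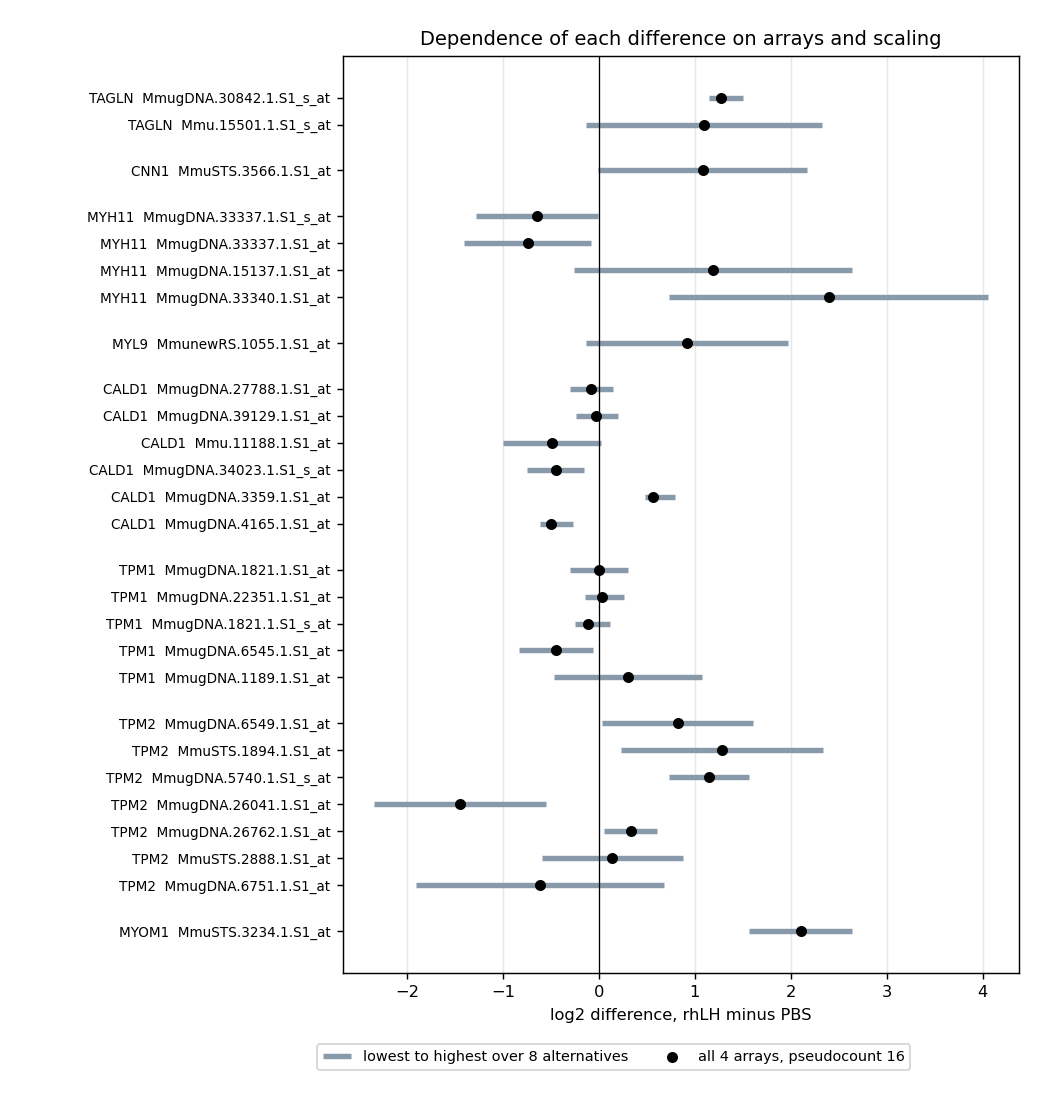
Log2 difference between rhLH and PBS for each member probe set with all 4 arrays and a pseudocount of 16 (dot), and the lowest to highest value over 8 alternatives of scaling, pseudocount and left-out array (bar). The bars of MYOM1 (1.57 to 2.64) and of the brighter TAGLN probe set (1.15 to 1.498) lie wholly above 1; those of CNN1, MYL9 and the other TAGLN probe set reach below 0.

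Of the smooth muscle markers ACTA2, MYH11, CNN1, TAGLN, DES, ACTG2, LMOD1 and SMTN, 6 of 8 were measured. Their summed signal was 11461 and 10387 on the rhLH arrays, against 6705 on PBS replicate 1 and 10556 on PBS replicate 2. The sum includes the members MYH11, CNN1 and TAGLN, with TAGLN alone at 6118 and 6561 on the rhLH arrays, so it is not independent of the member values. The tissue also carried other smooth muscle genes at measurable signal. ACTG2, the enteric smooth muscle actin, had 1414 and 1264 on the rhLH arrays, against 1345 and 1847 on the PBS arrays. LMOD1, a smooth muscle actin nucleator, had 373 and 283 with rhLH, against 324 and 603 with PBS, and SMTN, smoothelin, 576 and 456 with rhLH, against 417 and 588 with PBS. SYNPO2, a Z-disc and actin-bundling protein, had 500 and 688 with rhLH, against 835 and 542 with PBS. The groups overlapped for these 4 genes.

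Over 17 measured genes of 26 in the list of other smooth muscle contractile genes, each represented by its brightest kept probe set, the median difference was 0.05, beside 0.02 over all 10998 genes. Both rhLH arrays lay above both PBS arrays for 2 of them (16.3% of all genes) and below for 1 (16.1% of all genes), and 0 passed limma. The same shares of all genes stand beside the counts of each list that follows. Since no kept probe set passed limma, the limma count of every list was bound to be 0. ACTN4, an actin cross-linker, had 3459 and 3956 on the rhLH arrays, against 541 on PBS replicate 1 and 3295 on PBS replicate 2. CSRP2, a smooth muscle LIM protein, differed by 0.17, and ITGA7, a laminin-binding integrin subunit, by −0.37.

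Of 41 other sarcomere genes 18 were measured, and they showed no common direction, with a median difference of 0.14 (0.57 when PBS replicate 1 was the sole control and −0.17 when PBS replicate 2 was). For 6 both rhLH arrays were higher and for 3 lower (16.3% and 16.1% of all genes), and 0 passed limma. TTN, titin, the giant spring of the sarcomere that MYOM1 helps to anchor, had 94.6 and 88.0 on the rhLH arrays, against 492 on PBS replicate 1 and 109 on PBS replicate 2. MYOM2, the other M-band myomesin measured, had 102 and 184 on the rhLH arrays, against 56.8 and 155 with PBS, with overlapping groups. TNNI3, the inhibitory troponin of heart muscle, had 3137 and 2426 on the rhLH arrays, against 1239 and 1786 with PBS, a difference of 0.88. MYL7, an atrial myosin light chain, had a signal of 65.5 on PBS replicate 1, below the filter level. It differed by 1.33 from PBS replicate 1 and 0.65 from PBS replicate 2. TNNI1, the slow skeletal troponin I, differed by −2.00 and −0.72 in the same order.

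The striated muscle markers TTN, NEB, ACTA1, ACTN2, TNNT1, TNNT3, MYL1, CKM and MB were measured for 4 of 9 genes. Their summed signal was 932 and 697 on the rhLH arrays, against 877 and 839 on the PBS arrays. On PBS replicate 1 the TTN probe set alone gave 492 of the 877, so nothing about MYOM1 is read from this sum. TNNT1, slow skeletal troponin T, had 537 and 503 on the rhLH arrays, against 204 and 419 on the PBS arrays, a difference of 0.79 without overlap.

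Non-muscle actin and myosin genes had a median of 0.34 over 10 of 15 genes, with medians of 0.80 and −0.22 when PBS replicates 1 and 2 were each the sole control, and 1 gene higher and 1 lower on both rhLH arrays. ACTB and ACTG1, the cytoplasmic actins, overlapped between groups, at 0.75 and 0.98 relative to PBS replicate 1 but −0.33 and −0.26 relative to PBS replicate 2. MYH9, non-muscle myosin IIA, was lower on both rhLH arrays (3711 and 4467 with rhLH, against 6800 and 4873 with PBS). MYH10, non-muscle myosin IIB, had 774 and 654 on the rhLH arrays, against 6.67 on PBS replicate 1 and 872 on PBS replicate 2. MYL6, the essential light chain of smooth muscle and non-muscle myosin, differed by 0.92 from PBS replicate 1 and by 0.02 from PBS replicate 2.

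Genes that control contraction had a median of 0.03 over 13 of 20 genes (−0.16 relative to PBS replicate 1 and −0.14 relative to PBS replicate 2), with 2 higher and 4 lower on both rhLH arrays. RHOA, the small GTPase that sensitises smooth muscle to calcium, had 14484 and 15673 on the rhLH arrays, against 14491 and 14209 on the PBS arrays. ROCK1, its effector kinase, was lower on both rhLH arrays (log2 −0.87 from PBS replicate 1 and −0.22 from PBS replicate 2), and its paralog ROCK2, with overlapping groups, differed by 0.69 and −0.39 in the same order. PPP1R12A, the targeting subunit of myosin phosphatase, differed by 1.33 from PBS replicate 1 and −0.18 from PBS replicate 2, and PPP1R14A, an inhibitor of that phosphatase, by −0.16 and −0.44. CALM3, a calmodulin gene, differed by 1.23 and 0.05 in that order. ARHGEF1, a RhoA activator, differed by 0.95 and 0.20, and ARHGEF12, of the same family, by −0.71 and −0.92. ARHGEF12 was dim, at 77.6 and 191 on the rhLH arrays, the former below the filter level.

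SRF with its myocardin-family partners, and the MEF2 factors, drive many contractile genes. The list used here also holds FHL2, TEAD1, TEAD4, GATA6 and KLF4, which are none of these, so its values do not describe such drivers alone. Of its 17 genes 12 were measured, with a median of −0.50 (−0.41 relative to PBS replicate 1 and −0.23 relative to PBS replicate 2). The median was −0.17 with probe sets averaged per gene, −0.14 with a filter at the 70th percentile and −0.27 with arrays centred on their medians. There was 1 gene higher and 5 lower on both rhLH arrays and 0 past the limma threshold. The higher gene was FHL2, and TEAD1 and KLF4 were among the lower ones. MEF2A had 1866 and 2342 on the rhLH arrays, against 4291 and 2640 on the PBS arrays. ELK4, an SRF partner, differed by −1.14 from PBS replicate 1 and −0.33 from PBS replicate 2, and TEAD1, a factor that binds muscle gene promoters, by −0.81 and −1.004. TEAD1 was dim, at 208 and 87.1 on the rhLH arrays, the latter below the filter level. MYOCD, myocardin, had 345 and 234 on the rhLH arrays, against 264 and 348 with PBS, and MEF2C differed by 0.10, both with overlapping groups. Of the genes set for mention in the lists, MYLK, MYOM3, ACTA1, ACTN2, SRF, PDGFRB, RGS5, PDGFRA and CYP11A1 matched no kept probe set and were not analysed here.

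The summed signals of markers of pericytes, fibroblasts, endothelial cells, luteal cells and leukocytes were each lowest on PBS replicate 1. Pericyte markers had a summed signal of 13441 and 19675 on the rhLH arrays, against 11296 on PBS replicate 1 and 17280 on PBS replicate 2, over 8 of 11 genes (median 0.16, with 2 genes higher and 0 lower on both rhLH arrays). CSPG4 (NG2), a pericyte proteoglycan, differed by −0.19 with overlapping groups. NOTCH3, a mural cell receptor, differed by 0.90 from PBS replicate 1 and −0.46 from PBS replicate 2. KCNJ8, a potassium channel subunit of pericytes, differed by 0.10 in the pooled comparison and HIGD1B by 1.56 and 0.42 from the separate PBS arrays. Fibroblast markers summed to 58767 and 67730 on the rhLH arrays, against 36480 and 70416 on the PBS arrays (9 of 11 genes, median −0.08, 0 higher and 1 lower). COL1A1 differed by 1.67 from PBS replicate 1 and −0.45 from PBS replicate 2, DCN by 0.76 and −0.16, and COL3A1 by −1.497 and −0.28.

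Endothelial markers summed to 26249 and 30355 on the rhLH arrays, against 22998 and 30025 on the PBS arrays (12 of 13 genes, median 0.21, 2 higher and 1 lower). KDR, the VEGF receptor, had a signal of 34.8 on PBS replicate 1, below the filter level. It differed by 2.4996 from PBS replicate 1 but 0.20 from PBS replicate 2. In the same order PECAM1 differed by −0.45 and −0.16, VWF by 0.90 and −0.34, CDH5 by 0.24 and −0.07, and TIE1 by 0.16 and 0.13. Luteal steroidogenic cell markers summed to 172354 and 185814 on the rhLH arrays, against 83155 on PBS replicate 1 and 172793 on PBS replicate 2 (8 of 11 genes, median 0.70, 4 higher and 0 lower). STAR, the mitochondrial cholesterol carrier, differed by 1.10 from PBS replicate 1 and −0.07 from PBS replicate 2. In the same order CYP19A1, aromatase, differed by 3.10 and 1.13, NR5A2 by 0.90 and 0.35 and AMHR2 by 1.98 and 0.25. AMHR2 had a signal of 77.2 on PBS replicate 1, below the filter level. Leukocyte markers summed to 5704 and 3225 on the rhLH arrays, against 2609 and 3955 on the PBS arrays (6 of 12 genes, median −0.04, 0 higher and 0 lower), with PTPRC at −0.57 and 0.22 and CD68 at 1.17 and 0.31 in that order. No single marker passed limma, which was bound to be so as no kept probe set did. On PBS replicate 2 these sums, the fibroblast sum excepted, lay within the range of the rhLH arrays. So did the smooth muscle sum, which contains TAGLN, CNN1 and MYH11. On PBS replicate 2 that sum joins a TAGLN signal below the rhLH range (2568) and a MYH11 signal above it (4501), which offset each other. Each sum is weighted to its brightest genes and does not show that its genes were alike between arrays. The part of tissue makeup in the member values was not tested.

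**Figure D4:**
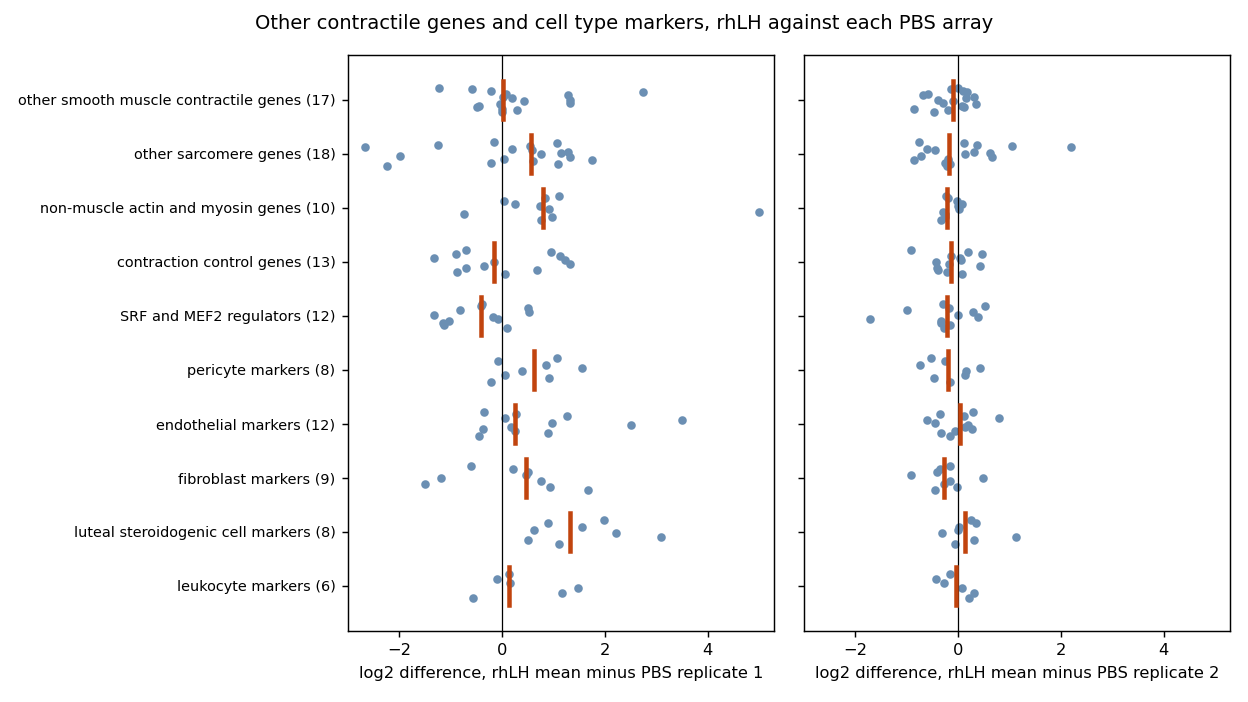
Log2 difference of the rhLH mean against PBS replicate 1 (left) and PBS replicate 2 (right) for each measured gene of the 10 lists (dots; number of genes in brackets) and the list median (bar). List medians run from −0.41 to 1.33 on the left and from −0.28 to 0.13 on the right.

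The genes whose profile over the 4 arrays was most like that of the brighter TAGLN probe set were CPEB4, SLC30A4, CDH16, FGL2 and HSDL1. Likeness was the mean absolute difference of log2 values after each gene was centred on its own mean, over 4 arrays and among 5184 genes that spanned at least 1 log2 unit. It ran from 0.06 for CPEB4 to 0.12 for HSDL1. CPEB4, an mRNA-binding protein, had signals of 5856 and 5798 on the rhLH arrays, against 2219 and 2307 on the PBS arrays. For MYOM1 the most alike were NKD2, CITED1, FAM222A, TBC1D8B and TMEM120A, at 0.14 to 0.17. NKD2, an antagonist of Wnt signalling, had 240 and 252 on the rhLH arrays, against 32.02 and 64.8 with PBS. TMEM120A had 3208 and 2601 with rhLH, against 535 and 1320 with PBS. NKD2, CITED1, FAM222A, CDH16 and FGL2 each had at least 1 PBS signal below the filter level, so their likeness depends on the pseudocount. None of these 10 genes belonged to the contractile lists. Those 5 lists hold only 70 of the 10998 measured genes, so nothing is read from this.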

How the data were processed

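The members and lists were chosen with earlier results of these data known. RNA from luteal tissue was hybridised to 4 arrays, and the deposited intensities are linear MAS5 signals, 1 per probe set, per the labels' descriptions and the submitters' processing notes. The scaling target, detection calls and filters are not stated there. The arrays' number, 2 per group, limits the precision. The labels do not tie an array to an animal, so p-values measure the spread between these arrays, which may be partly technical.

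Signals were used as log2(signal + 16) without further normalization. Of 52865 probe sets, 99 controls were set aside and those with a mean above the 40th percentile kept (31659). Gene symbols came from a platform annotation: 24956 probe sets had 1 symbol, 361 several and 27449 none. The fit was made with limma's lmFit and eBayes (version 3.58.1, R 4.3.3, variance trend, two-sided p adjusted by Benjamini-Hochberg). It was tried on simulated data with alike noise on the 4 arrays. The PBS arrays here differed more from each other than the rhLH arrays did, so that trial does not show how the fit behaves on these data. Folds are 2 raised to the difference of mean log2 values. Named from the lists were a preset panel and, per list, up to 3 further genes with the largest difference among those whose groups did not overlap. Alternatives covered scaling, pseudocount, filter, variance prior, probe set choice and leaving out each array. No sequence was used here.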

Additional observations from a re-analysis of the deposited data

How the results depend on the processing

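The limma count of 0 held under every alternative except those that leave out an array, where it ranged from 0 to 8027; it was above 0 only without PBS replicate 2. The members' median difference of 0.14 became 0.73 with probe sets averaged per gene and ranged from −0.14 (without PBS replicate 1) to 0.61 (without PBS replicate 2) when an array was left out. The median over the 5 pathway lists, 0.06, became 0.29 with arrays centred on their medians and ranged from −0.16 to 0.12 when an array was left out. Of the 27 member probe sets, 14 kept their sign under all 8 alternatives run on them. Of 216 recomputed member values, 11 moved by more than 1 SD between replicates. With 2 arrays per group, leaving out an array cannot move a value by more than this SD. That count therefore speaks only to scaling and pseudocount and does not show stability against the choice of arrays. The dimmer TAGLN probe set ranged from −0.14 to 2.33 over the alternatives, and none of its values counted as moved.

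Numbers of probe sets whose groups do not overlap, 4573 higher and 5608 lower, changed with scaling, filter and arrays. They were 7068 and 3575 with arrays centred, 7023 and 10311 with no filter, and 2792 and 2272 with a filter at the 70th percentile. With an array left out they ranged from 7384 to 12105 and from 9031 to 15482. Fewer arrays separate more easily, so a rise was bound to occur here and in the counts at 2-fold or more. At 2-fold or more, 109 were higher and 155 lower. That was 175 higher with arrays centred, 65 and 58 with a pseudocount of 64, 378 and 798 with no filter, 42 and 19 at the 70th percentile, and 189 to 3924 and 312 to 4631 with an array left out. No paired analysis was possible because the groups share no replicate number. With no detection calls, signals near or below 90.7 have no certain order.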
